A study of Mus musculus with 384 samples.

Results

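Accessible chromatin around 10 genes of the matrix metalloproteinase system was described in single cells of a mouse breast tumor. The genes were the metalloproteinases Mmp2, Mmp3, Mmp9, Mmp11, Mmp12, Mmp13 and Mmp14 and the tissue inhibitors Timp1, Timp2 and Timp3, out of 22350 protein-coding genes in the annotation. Their windows were those of the deposited list whose centre lay 50 kb or less from an annotated transcription start site of one of the genes, and a window was called a promoter window where that distance was at most 1 kb. By this rule 44 of the 50000 windows belonged to the 10 genes, and 0 of them were shared between genes.

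The cells came from 1 tumor of the MMTV-PyMT model, in which a mammary tumor virus promoter drives a polyomavirus oncogene in the mammary epithelium, and the study's methods put the age of the mice at 3 months. By the study's methods the mouse was perfused with fixative before the tumor was dissociated, and the suspension was stained against EpCAM, found on epithelial cells, and CD45, found on leukocytes. The study's methods describe sorting without selection by stain. Its supplement shows gates for cells positive for EpCAM or CD45, and its results class the cells that passed its filter as one or the other. If those gates applied to all wells, cells without either protein, such as most fibroblasts and endothelial cells, should be few. Pi-ATAC, which tags open chromatin with a transposase in stained cells sorted singly, was run on 4 plates of 96 wells. The labels place all wells in 1 group and give no stain result for any well, so tumor cells and immune cells could not be set against each other. One list of 500-bp windows in mouse build mm9, called on the cells together, was analysed. It holds positions and peak names only, with no score, read count or value per cell, so the depth behind a window is unknown, there are no replicates and no test was made. Shares are therefore set beside the share over all genes or all windows, with exact (Clopper-Pearson) 95% intervals that cover counting error only. A window that is open in few cells cannot be told apart from one that is weakly open in many.

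Matrix metalloproteinases are zinc-dependent proteases that cut collagens, laminins, fibronectin and other proteins of the extracellular matrix and the cell surface. Most are secreted as inactive proenzymes, while the membrane-type enzymes stay anchored in the plasma membrane. The tissue inhibitors bind the active site of the enzymes, and Timp3 is further held in the matrix. In breast tumors, both enzymes and inhibitors are known to come largely from fibroblasts, macrophages and neutrophils of the stroma. Promoters of the secreted enzymes are known for an AP-1 element a short way before the start site, often next to an Ets element, and for a TATA box in several of them.

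The 150 bases before the annotated 5′ end are shown for the 3 genes that had a promoter window, Mmp13, Mmp2 and Timp3, and for Mmp3, which had none but shares AP-1 and TATA words with Mmp13. Capitals mark the AP-1 word (TGACTCA or TGAGTCA), the Ets word (AGGAAG), the RUNX word (TGTGGT or TGCGGT) and the GC box (GGGCGG), each on either strand, and a TATA word (TATAAA or TATATA) on the strand of the gene within 50 bases of its 5′ end. All 4 are written 5′ to 3′ on the plus strand of mm9, and each ends at the base before the gene.
Mmp13, chr9:7272364-7272513: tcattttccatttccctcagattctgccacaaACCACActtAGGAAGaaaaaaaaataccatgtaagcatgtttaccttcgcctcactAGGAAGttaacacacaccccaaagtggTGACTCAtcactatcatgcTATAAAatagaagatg
Mmp3, chr9:7445672-7445821: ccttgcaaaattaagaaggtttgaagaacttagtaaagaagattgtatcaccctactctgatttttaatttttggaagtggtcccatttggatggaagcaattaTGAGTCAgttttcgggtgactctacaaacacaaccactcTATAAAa
Mmp2, chr8:95351077-95351226: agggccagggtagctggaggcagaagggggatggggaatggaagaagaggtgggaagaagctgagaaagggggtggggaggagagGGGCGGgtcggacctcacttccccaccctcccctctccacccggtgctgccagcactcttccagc
Timp3, chr10:85762967-85763116: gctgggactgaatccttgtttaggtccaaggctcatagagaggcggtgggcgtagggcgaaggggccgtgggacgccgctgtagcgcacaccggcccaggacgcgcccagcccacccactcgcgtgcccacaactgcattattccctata
The Mmp13 stretch held, in this order, a RUNX word, 2 Ets words of which the second began 62 bases before the 5′ end, an AP-1 word 35 bases before it and a TATA word 16 bases before it. The Mmp3 stretch held an AP-1 word 46 bases and a TATA word 7 bases before the annotated end. Mmp2 carried 1 GC box, 65 bases before its end, and the Timp3 stretch carried none of these words. The Mmp13 stretch lay almost wholly within its promoter window. That of Mmp2 lay wholly before its promoter window, and that of Timp3 mostly before the promoter window at its 5′ end.

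Of the 10 genes, 3 had a promoter window, namely Mmp2, Mmp13 and Timp3 (30%, interval 6.67 to 65.2%). Over all protein-coding genes the share was 43.5%, which lies within that interval. All 10 genes had a window within 50 kb, beside 84.6% of protein-coding genes. The median was 5 windows per gene (range 1 to 7), and over all protein-coding genes it was 3 (range 0 to 52). The nearest window lay at a median of 3116 bp from a start site for the 10 genes and 3254 bp for all genes. At the threshold of 1 kb, the window of Mmp2 at 407 bp was the farthest inside, and the second Mmp13 window at 1128 bp and the Timp1 window at 1401 bp were the nearest outside.

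**Figure D1:**
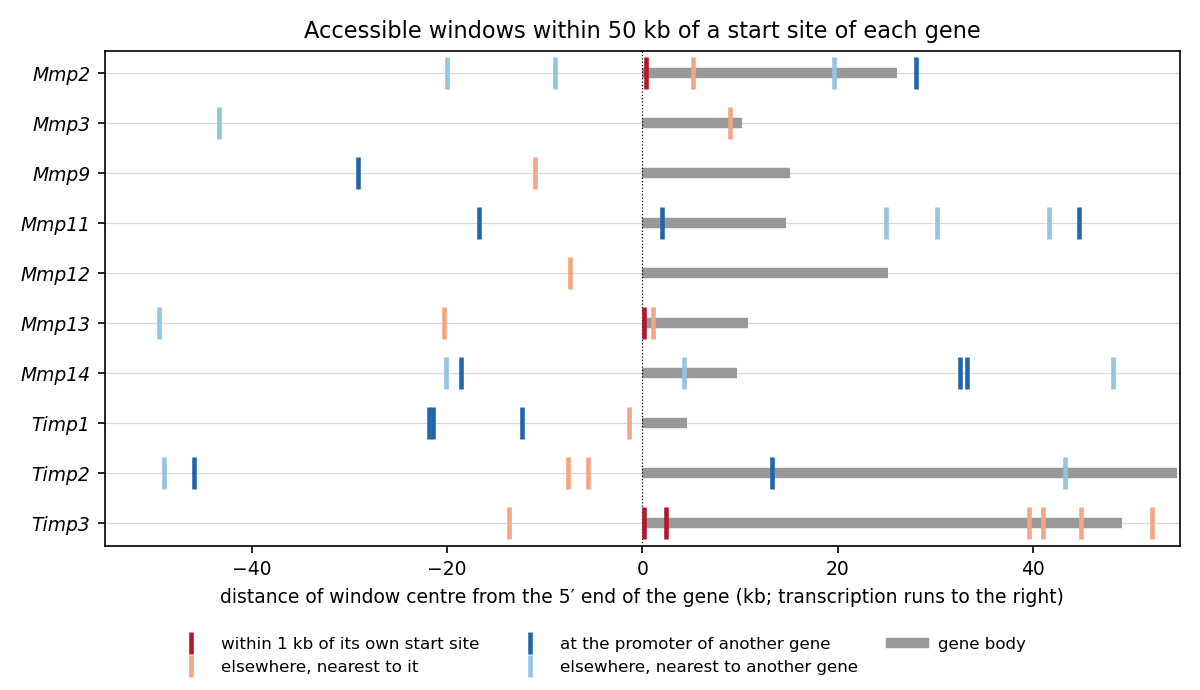
Position of each of the 44 windows (ticks) relative to the 5′ end of its gene in kb on the x axis, with 1 row per gene and gene bodies as grey bars. Mmp2, Mmp13 and Timp3 have a window within 1 kb of their own start site, and the windows of Mmp11 and Mmp14 all lie nearest to other genes.

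A window within 50 kb of a gene may belong to a neighbour. Of the 44 windows, 18 (40.9%) were nearest to a start site of one of the 10 genes. These were 4 promoter windows and 14 others. A further 13 windows lay at the promoter of another gene, and 13 lay elsewhere but nearest to another gene. By location 17 of the 44 were within 1 kb of some start site (38.6%), 3 were in exons, 13 in introns and 11 between genes.

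**Figure D2:**
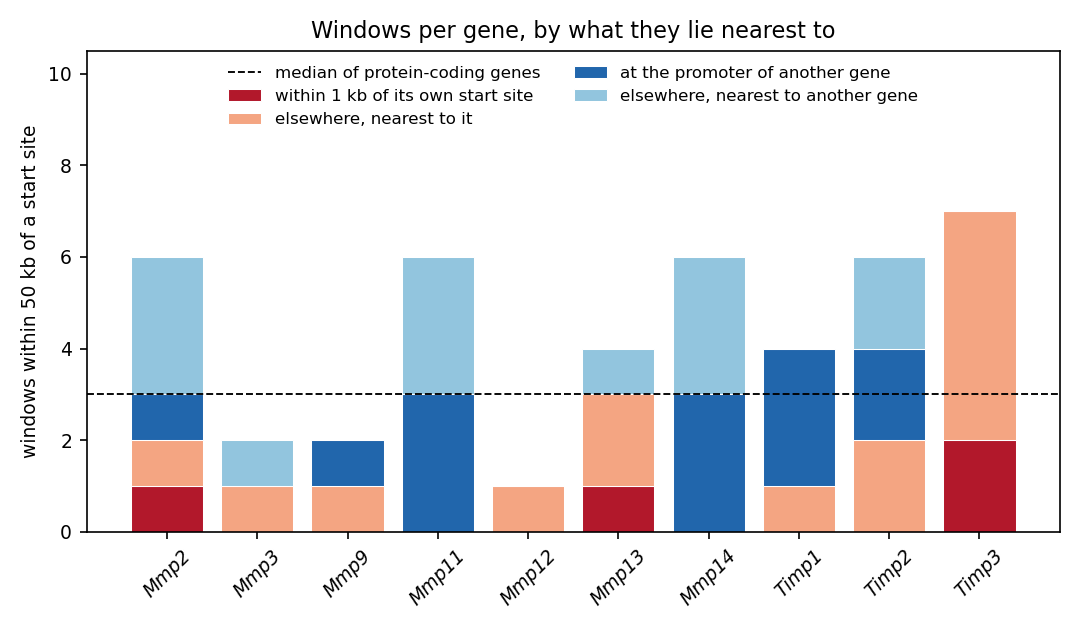
Windows within 50 kb of a start site (y axis, count) for each of the 10 genes, divided by what they lie nearest to, with the median of all protein-coding genes as a dashed line at 3. All 7 windows of Timp3 are nearest to it, while Mmp11 and Mmp14, with 6 windows each, have none nearest to them. Other protein-coding genes with a start site within 50 kb number 0 for Timp3, 6 for Mmp11 and 5 for Mmp14.

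**Figure D3:**
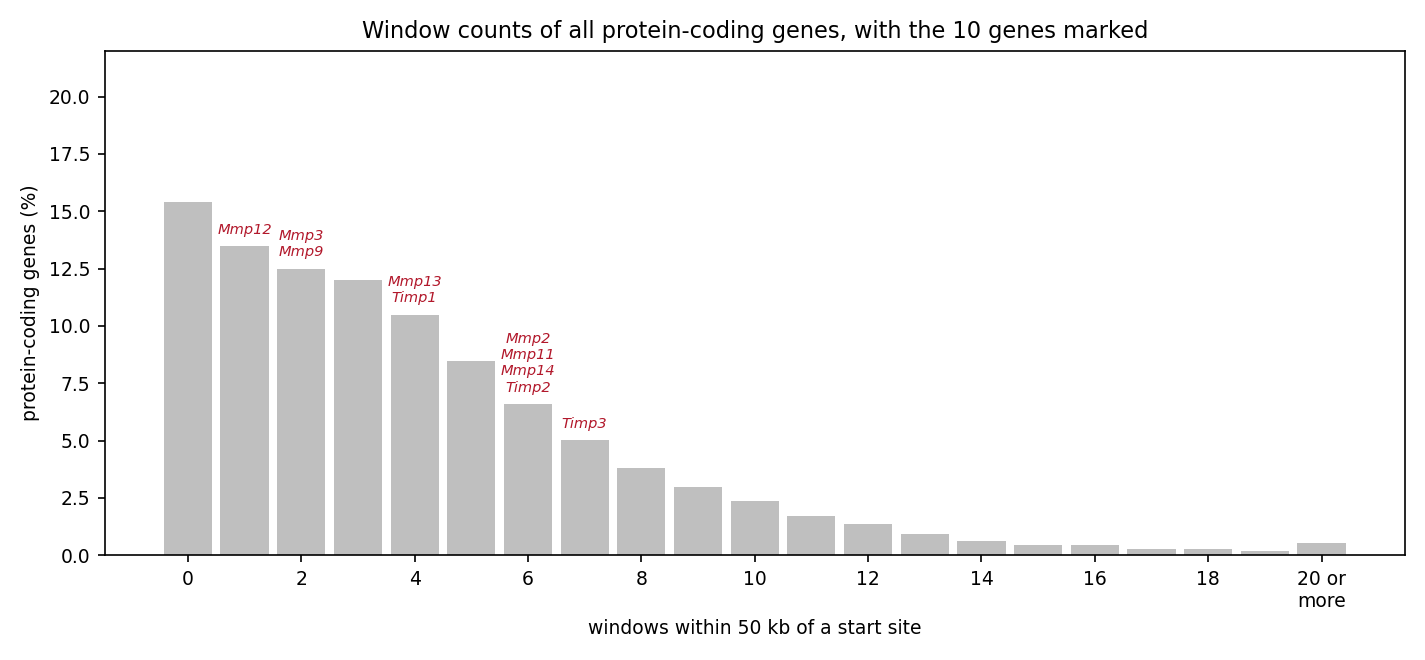
Share of the 22350 protein-coding genes (y axis, percent) against the window count within that 50 kb reach (x axis), with the 10 genes named above the bar of their own count. The genes lie between 1 window (Mmp12) and 7 windows (Timp3), inside the range of most genes.

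The gelatinases Mmp2 and Mmp9, which cut denatured collagen and type IV collagen of basement membranes, differed in their windows. Mmp2 (ENSMUSG00000031740, chr8:95351227-95377316, plus strand) had 6 windows, a number that 27.6% of protein-coding genes reached or passed, although the median on chromosome 8 was 7. Its promoter window, chr8:95351385-95351884, was centred 407 bp inside the gene in its 5′ exon and held 26 CpG and a GC box. That GC box is not the one printed above, which lies before the window. A further window lay in an intron at 5156 bp and was nearest to Mmp2. The other windows lay at -20011 and -8970 bp, both nearest to the gene model Gm17310, at 19659 bp inside Mmp2 but nearest to Lpcat2, and at 27996 bp at the promoter of Lpcat2 itself, which encodes a lysophospholipid acyltransferase. Distances are those of the window centre to the nearest annotated start site of the gene, and negative ones are upstream.

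The window at -8970 bp is shown because it held the AP-1 word. Its first bases are given, with that word and the nearest of the Ets words of the window in capitals.
Mmp2 upstream window, chr8:95342008-95342128: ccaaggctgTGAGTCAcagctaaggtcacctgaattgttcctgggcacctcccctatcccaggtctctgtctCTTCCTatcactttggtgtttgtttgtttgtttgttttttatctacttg
The AP-1 word lay outside the central 200 bp of the window.

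Mmp9 (ENSMUSG00000017737, chr2:164766280-164781350, plus strand) had 2 windows, a number that 71.1% of protein-coding genes reached or passed. One, chr2:164755058-164755557, lay 10973 bp upstream and was nearest to Mmp9. The other lay 29058 bp upstream at the promoter of Zfp335, a zinc finger gene. The annotated gene body, with 4 start sites, held no window. Mmp9 was also the only one of the 10 genes without a window within 10 kb.

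The stromelysins Mmp3 and Mmp11 were both without a promoter window. Mmp3 (ENSMUSG00000043613, chr9:7445822-7455972, plus strand), which cuts many matrix proteins and activates other proenzymes, had 2 windows. One lay in its last part, in an intron at 8950 bp, and the other 43296 bp upstream was nearest to Mmp1b. The Mmp3 promoter thus held AP-1 and TATA words without a window in the list.

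Mmp11 (ENSMUSG00000000901, chr10:75385967-75400678, minus strand), known from fibroblasts around breast carcinoma, lay in a gene-dense stretch with start sites of 6 other protein-coding genes within 50 kb, 3 of which had a promoter window. It had 6 windows, and 0 of them were nearest to it. The closest, chr10:75398436-75398935, was centred 1993 bp inside Mmp11, counted from its outermost annotated end. It was within 1 kb of the start of Chchd10, a mitochondrial protein gene. From the RefSeq start site of Mmp11, this window lay at -3438 bp. Others were at the promoters of Gm5134 (-16741 bp) and of Derl3 (30704 bp), a gene of protein degradation at the endoplasmic reticulum. The remaining windows lay in Smarcb1, a chromatin remodelling subunit, at 10967 and 16221 bp, and between genes at 27713 bp.

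Mmp12 (ENSMUSG00000049723, chr9:7344381-7369499, plus strand), the macrophage elastase, had the fewest windows of the 10 genes. Its 1 window, chr9:7336693-7337192, lay 7439 bp upstream and was nearest to it. As many or more windows were found at 84.6% of protein-coding genes. The part of this window that held a CEBP word (TTGCNNAA on either strand) and an Ets word is shown with both in capitals, since it was the sole window near the gene.
Mmp12 upstream window, chr9:7336847-7336967: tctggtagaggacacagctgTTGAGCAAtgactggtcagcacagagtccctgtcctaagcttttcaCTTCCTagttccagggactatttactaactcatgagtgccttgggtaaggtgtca
The promoter of Mmp12 itself held the PU.1 word (GAGGAAGT, which contains the Ets word) 72 bases before the 5′ end and a CEBP word 23 bases before it. PU.1 and CEBP factors are known regulators of macrophage genes. The PU.1 word was in 3.12% of protein-coding promoters, counted from 250 bases before to 50 bases after the 5′ end, and in 4.96% of all windows. It was in 0 of the 44 windows (interval 0 to 8.04%).

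Mmp13 (ENSMUSG00000050578, chr9:7272514-7283333, plus strand), a collagenase that cuts fibrillar collagen, had 4 windows. The promoter window, chr9:7272383-7272882, was centred in the 5′ exon and held the AP-1, Ets and RUNX words printed above. A second window at 1128 bp was in an intron, and windows at -20322 and -49495 bp lay between genes. The first 3 of these were nearest to Mmp13, and the farthest was nearest to Dcun1d5. With 4 CpG and 46% GC, its promoter window was poorer in CpG than those at 407 bp of Mmp2 (26 CpG) and at the 5′ end of Timp3 (47 CpG).

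Mmp14 (ENSMUSG00000000957, chr14:55050441-55060095, plus strand), the membrane-type enzyme known to activate the proenzyme of Mmp2, had 6 windows and no promoter window. One, chr14:55054430-55054929, lay inside the gene at 4238 bp with its centre in an exon, and was nearest to Gm11067, whose start was 2000 bp away. Of the others, 1 was at the promoter of Slc7a7, an amino acid transporter, at -18524 bp and 2 were at the promoter of Lrp10, a lipoprotein receptor family gene, at 32473 and 33204 bp. The last 2 lay in Slc7a7 at -20130 bp and in Rem2 at 48155 bp. The first bases of the window inside the gene are shown because they held the AP-1 word, in capitals. In the annotation they are neither coding nor untranslated exon.
Mmp14 internal window, chr14:55054430-55054550: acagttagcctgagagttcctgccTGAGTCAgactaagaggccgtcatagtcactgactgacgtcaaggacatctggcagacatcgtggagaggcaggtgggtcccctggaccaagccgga

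Among the inhibitors, Timp1 (ENSMUSG00000001131, chrX:20447292-20451861, plus strand), a secreted inhibitor that binds the proenzyme of Mmp9, had 4 windows. Of these, 3 were at promoters of Araf, a RAF family kinase, at -21813, -21466 and -12359 bp, and the first 2 overlapped each other. The fourth, chrX:20445642-20446141, was centred 1401 bp upstream in an intron of Syn1, the synapsin gene in which Timp1 lies on the opposite strand. This window is shown in part because it was the nearest to Timp1. Capitals mark a CEBP word and a RUNX word.
Timp1 upstream window, chrX:20445922-20446121: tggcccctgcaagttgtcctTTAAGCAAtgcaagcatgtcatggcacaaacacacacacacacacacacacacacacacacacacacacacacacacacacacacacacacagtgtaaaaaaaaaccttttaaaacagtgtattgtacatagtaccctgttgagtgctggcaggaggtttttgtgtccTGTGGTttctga
Between the capitals it carried a run of 62 bases of alternating c and a. A run as long as this was found in 56 of the 50000 windows (0.112%), and runs of 20 bases or more in 7.25%, including 4 of the 44. How such repeats affected mapping here was not tested.

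Timp2 (ENSMUSG00000017466, chr11:118162383-118217054, minus strand), which inhibits Mmp2 and also takes part in its activation with Mmp14, had 6 windows. Those nearest to it were centred 5545 and 7594 bp upstream, at chr11:118222350-118222849 and chr11:118224399-118224898, and both held Ets words. Windows at the promoters of Lgals3bp (-45908 bp), which encodes a secreted galectin ligand, and of the gene model BC100451 (13013 bp) accounted for 2 more, and the rest lay at -48915 bp and in a Timp2 intron at 43009 bp.

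Timp3 (ENSMUSG00000020044, chr10:85763117-85812251, plus strand), the matrix-bound inhibitor, had the most windows, 7, and all of them were nearest to it. As many or more were found at 21% of protein-coding genes. No other protein-coding gene had a start site within 50 kb of those of Timp3, against 6 such genes around Mmp11 and 5 around Mmp14. Of the 7 windows of Timp3, 2 were promoter windows. The first, chr10:85763068-85763567, was centred 200 bp from the 5′ end, 16 bp from a start site, with 47 CpG and a GC box. The second, chr10:85765306-85765805, was centred 2438 bp from the 5′ end, 44 bp before an internal start site, with 4 CpG. The others lay at -13681 bp in Syn3, the synapsin gene around Timp3, and at 37041, 38520, 42437 and 49729 bp. The last was past the end of Timp3, in an intron of Syn3.

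The window at 37041 bp, in an intron, is shown because it held AP-1, with its word in capitals. The shorter stretch is the CTCF word of the internal promoter window, also in capitals.
Timp3 intron window, chr10:85802391-85802511: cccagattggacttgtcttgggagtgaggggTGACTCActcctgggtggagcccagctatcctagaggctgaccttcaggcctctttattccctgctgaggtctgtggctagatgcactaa
Timp3 internal promoter window, chr10:85765653-85765682: ctgttgccaCCAGTAGATGGCtcccaactg
CTCF is a protein at the borders of chromatin loops, and its word was found in 1 of the 44 windows (2.27%) and in 1.18% of all windows.

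The share of called peaks kept in the list was uneven, and it touches 5 of the 10 genes. Peak names carry a running number, and gaps in it show called peaks that were not kept. On chromosomes 7, 8, 9 and X, 41.5 to 51.8% of called peaks were kept, against 23.6 to 26.5% on the other 16 chromosomes. Mmp2 (chromosome 8), Mmp3, Mmp12 and Mmp13 (chromosome 9) and Timp1 (chromosome X) lie on the former. Without those 4 chromosomes, an alternative added after the data were seen, 1 of 5 genes had a promoter window (Timp3), beside 42.8% of protein-coding genes, and the median was 6 windows per gene. The median over protein-coding genes was 7 windows on chromosome 8, 5 on chromosome 9 and 2 on chromosome X. Mmp2 with 6 windows and Mmp3, Mmp12 and Mmp13 with 2, 1 and 4 were thus below the median of their chromosome, and Timp1 with 4 was above it. By the study's methods the peaks with the lowest q were kept, but the list holds no q, so that rule could not be checked against the uneven shares. The part of this unevenness in the window counts was not tested.

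The numbers also show how many peaks were called but not kept around each gene. From the first to the last window of Timp3, 7 of 9 called peaks were kept, and from those of Mmp14, 6 of 17. Such a span begins and ends on a kept peak, so its share cannot be set beside that of the chromosome. Between the windows that flank the 5′ end of Mmp9, 8 called peaks were not kept, and 3 were not kept around that of Mmp12. For Mmp14 the number was 4. The flanking windows lay 22.8 kb apart at Mmp14, 65.6 kb apart at Mmp12 and farther apart at Mmp9. The numbers give no position for a peak that was not kept. Such a peak may lie far from the 5′ end or at a neighbouring gene. Whether any peak was called at these 5′ ends is therefore unknown, and a missing window does not show closed chromatin there.

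The consensus words were counted over the 44 windows, and in no case did the share over all windows lie outside the interval of the 44. The AP-1 word was in 4 windows (9.09%, interval 2.53 to 21.7%), at Mmp2, Mmp13, Mmp14 and Timp3, and in 13.5% of all windows. The Ets word was in 22 (50%) and in 53.2% of all windows, and the RUNX word in 18 (40.9%) and in 39.4% of all windows. AP-1 and Ets stood in the same window in 3 of 44 (6.82%), beside 7.82% of all. No AP-1 word lay within the central 200 bp of the 44 windows (0 of 44, interval 0 to 8.04%). Among all windows 6.66% held one there, a share within that interval.

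**Figure D4:**
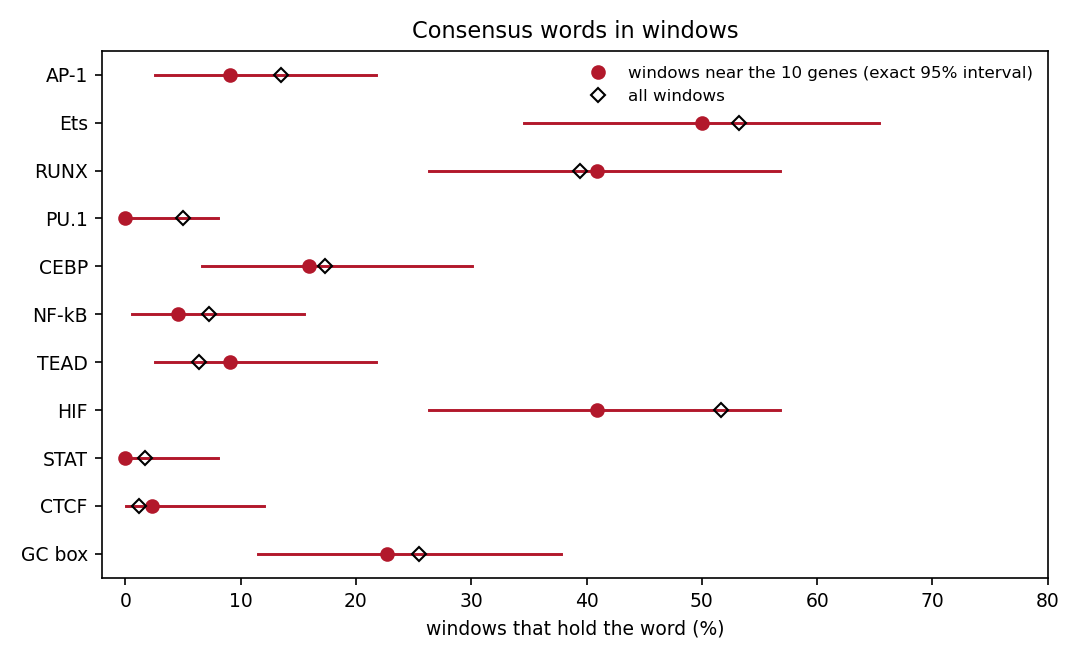
Share of windows that hold each consensus word (x axis, percent) for the 44 windows (red points, lines for exact 95% intervals) and for all 50000 windows (open diamonds). Each diamond lies within the line of its word.

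Of the other words, CEBP was in 7 windows (15.9%; 17.3% of all), NF-kB in 2 (4.55%; 7.28% of all), TEAD (ACATTCC) in 4 (9.09%; 6.35% of all) and STAT (TTCCNGGAA) in 0 (1.67% of all). Among the 4 windows with TEAD are the 2 overlapping ones near Timp1, which hold the same single word. The HIF word (ACGTG or GCGTG) was in 18 windows (40.9%) and in 51.7% of all, and the GC box was in 10 (22.7%) and in 25.5% of all. These last 2 words were more often at start sites in the whole list too. The GC box was in 64.3% of all windows within 1 kb of a start site and in 11.5% of the others, and the HIF word in 74.3% of those near start sites. All 10 windows with a GC box lay among the 17 within 1 kb of a start site, most of them of neighbouring genes. The HIF word was in 13 of those 17 and in 5 of the 27 farther windows (18.5%, interval 6.3 to 38.1%), whose interval lay below the 43.5% of all such windows. That comparison is 1 of several made over the words, and it was singled out after its value was seen. CEBP words were in 7 of the 27 farther windows (interval 11.1 to 46.3%) and in 0 of the 17 at start sites (interval 0 to 19.5%), and the shares of all such windows, 18.6 and 13.9%, lay within these intervals. Median GC content was 50.5% in the 44 windows and 49.8% in all windows, with a median of 5 and 7 CpG.

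In the promoters of the genes, whether windowed or not, the words were counted as well. TATA words were in 4.26% and AP-1 words in 4.42% of protein-coding promoters, and Mmp3 and Mmp13 held both. Ets words were in 8 of the 10 promoters, beside 34.7% of protein-coding promoters, with Mmp2 and Mmp11 the exceptions. RUNX words were in those of Mmp13 and Mmp14 (21.5% of promoters), and CEBP words in those of Mmp3, Mmp12 and Timp2 (10.3%). The GC box was in those of Mmp2, Mmp9, Mmp14, Timp1 and Timp3 (43.5%), and HIF words in the last 4 of these (48.1%). NF-kB, TEAD, STAT and CTCF words were in 0 of the 10. A matching word is a description of sequence and not of binding.

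Promoters with few CpG were seldom in the list, and 4 of the 10 genes have such promoters. Among protein-coding genes with 0 to 4 CpG in the same stretch around the 5′ end, 11.2% of 6752 had a promoter window. With 5 to 14 CpG it was 38.8% of 5884, and with 15 or more it was 68.8% of 9714. In the lowest class were Mmp3, Mmp11, Mmp12 and Mmp13, and only Mmp13 of these had a promoter window. For Mmp11 the CpG and words were read at its outermost annotated end, inside Gm867, and its RefSeq start site lies elsewhere, at position 75395247 of chromosome 10. The middle class held Mmp2, Mmp9, Mmp14, Timp1 and Timp2, and only Mmp2 of these had a promoter window. For Timp2 too the CpG and words were read at its outermost annotated end. Its RefSeq start site, at position 118216725 of chromosome 11, lies outside the stretch searched. Timp3, with 22 CpG, stood alone in the highest class. The CpG content of the 10 genes ranged from 0 (Mmp12) to 22, and the median over protein-coding genes was 11.

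The rest of the family and its partners were counted by lists. Of 16 other matrix metalloproteinases, 3 had a promoter window (18.8%, interval 4.05 to 45.6%), namely Mmp8, the neutrophil collagenase, Mmp17, a membrane-type enzyme, and Mmp19. Mmp19 had 10 windows within 50 kb, Mmp25 had 8, and Mmp15 and Mmp24 had 6 each, while Mmp16 was the only one with 0. Of 9 regulators of metalloproteinase activity, 6 had one (66.7%, interval 29.9 to 92.5%). These were Bsg, an inducer of metalloproteinases, Furin, which cleaves several proenzymes and had 18 windows, Cd44, a docking site for Mmp9 with 11, the thrombospondins Thbs1 (7 windows) and Thbs2, and Lrp1, a clearance receptor with 17. Timp4, Reck and Lcn2 had no promoter window, and had 2, 3 and 3 windows within 50 kb.

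In the plasminogen system, which activates several proenzymes, the activators Plau and Plat had a promoter window, as did the receptor Plaur, which had 14 windows within 50 kb. Of 12 ADAM and ADAMTS proteases, relatives with a disintegrin domain, 9 had one (75%, interval 42.8 to 94.5%). Adam8 had 17 windows within 50 kb, Adamts4 13, Adam17 9 and Adam15 7, and Adamts1 had 4 promoter windows. Adam9, Adam10, Adam12 and Adamts15 made up the rest.

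**Figure D5:**
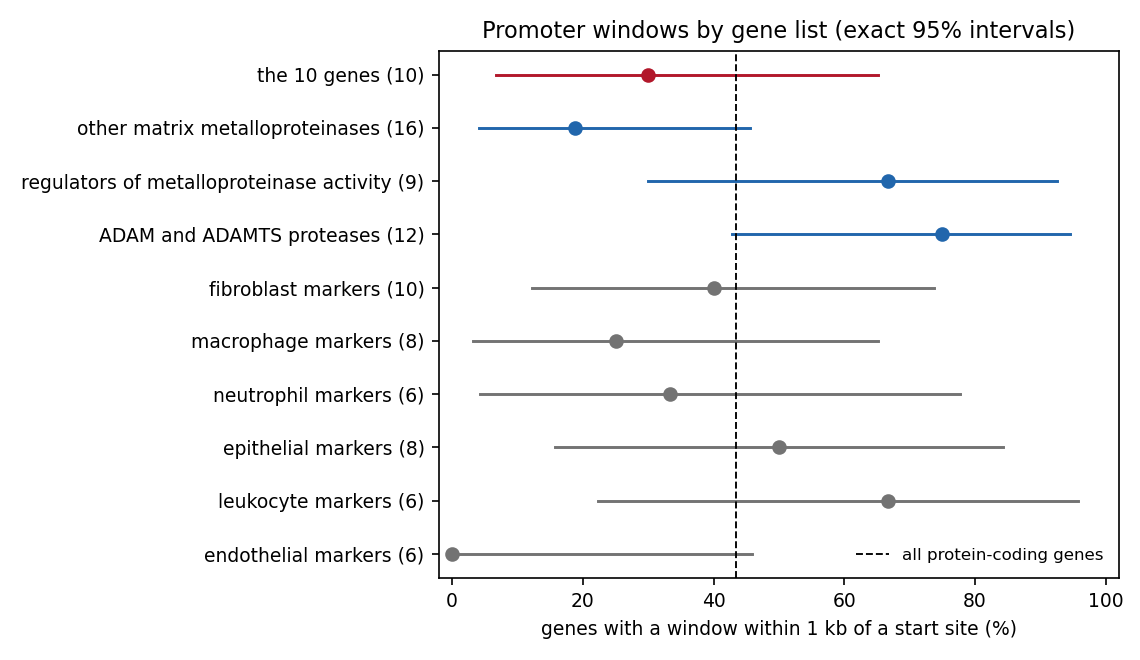
Share of genes with a promoter window (x axis, percent) in each of 10 gene lists, with the number of genes in parentheses, exact 95% intervals as lines and the share of all protein-coding genes, 43.5%, as a dashed line. The lines of all 10 lists reach the dashed line, and the 10 genes lie to its left at 30%.

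Markers of the stained cell types, and of fibroblasts and endothelium, were counted the same way. Promoter windows were found at 4 of 8 epithelial markers (Cdh1, Muc1, Cldn4 and Elf3) and at 4 of 6 leukocyte markers (Coro1a, Laptm5, Ikzf1 and Lcp1). They were also found at 4 of 10 fibroblast markers (Col1a1, Col1a2, Pdgfra and Dcn), 2 of 8 macrophage markers (Cd14 and Lyz2), 2 of 6 neutrophil markers (S100a9 and Cxcr2) and 0 of 6 endothelial markers. The share of all protein-coding genes, 43.5%, lay within the exact interval of each of these marker lists. Epcam and Ptprc, which encode the stained proteins EpCAM and CD45, had no promoter window, and their nearest windows lay at 1254 and 16677 bp. Which of these cells carried the windows of the 10 genes was not tested, because the list holds no value per cell.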

How the data were processed

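Accessible chromatin was profiled in single-cell wells of 1 PyMT tumor, with 1 group in the labels. Per the study's methods, the authors aligned paired reads (Bowtie2 2.1.0, mm9), filtered out duplicates (Picard 1.79), low-quality and mitochondrial reads, called summits on the aggregated cells by MACS2 (q threshold 0.05, tool version not given in the sources used here), extended them to 500 bp and retained the 50000 of lowest q. The deposited values are of unit other: positions and peak names, with no count or score.

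Windows were placed by their centre on GENCODE vM1 start sites, and sequences were read from the NCBIM37 genome, the same build. Positions count from 1. Words were searched in the 500 bp of each window, on both strands. RefSeq promoters (GRCm38.p6) were found in the mm9 sequence by exact match for 8 of the 10 genes, not Mmp2 or Mmp9, and 2 of the 8 had a window within 1 kb (Mmp13 and Timp3). Python 3.11.15, numpy 2.4.6, scipy 1.17.1 and matplotlib 3.10.9 were used, and the scripts were tested on simulated data. The genes and lists were chosen with earlier results of these data known, and 1 of 97 listed genes was matched by an older symbol. The words other than AP-1, Ets and RUNX were chosen after the list had been opened. Named are all 10 genes, the neighbours whose start sites their windows lie nearest to, and, of the lists, the genes with a promoter window and up to 4 with the most windows. Markers were counted by list, and the count over the plasminogen list is not reported here. The alternatives changed the promoter distance, the reach, the start sites, overlapping windows and the windows searched for words.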

Additional observations from a re-analysis of the deposited data

How the results depend on the processing

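No paired analysis was possible because the wells form 1 group and were deposited as 1 pooled list. With the promoter distance at 2 kb, 5 of the 10 genes had a promoter window (47% of protein-coding genes). The additions were Timp1 and Mmp11, whose window is at the Chchd10 promoter. That Mmp11 window was counted from the outermost annotated end of the gene and lies at -3438 bp from its RefSeq start site. At 500 bp there were 3 (40.1%). Without chromosomes 7, 8, 9 and X, added after the data were seen, there was 1 among 5 genes. With a reach of 10 kb the median fell to 1 window per gene, equal to that of all genes, with 14 distinct windows, 11 of them nearest to one of the genes. With 100 kb there were 78 distinct windows and a median of 7.5 (6 over all genes). In the central 200 bp, 0 windows held AP-1 (6.66% of all windows) and 5 held RUNX (19.1% of all windows). Among the 18 windows nearest to one of the genes, 2 held AP-1, 10 Ets and 8 RUNX, and among those over 1 kb from a start site 14 of 27 held Ets. These counts fall in part because fewer windows or bases were searched. Other alternatives left each count within 1.5 times its value. With no score, count or replicate, neither depth nor the spread between tumors could be weighed.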

Other observations

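Each of the 3 inhibitor genes Timp1, Timp3 and Timp4 lay inside a synapsin gene on the opposite strand, namely Syn1, Syn3 and Syn2. Timp1, Timp2 and Timp3 together had 17 windows and the 7 metalloproteinases 27. Syn1 had 1 promoter window, centred 76 bp from a start site, and Syn3 had 1, centred 3 bp from one. Syn2 had 0, with its nearest window 3537 bp away. The inner gene and its host thus both had a promoter window at Timp3 in Syn3, the host alone at Timp1 in Syn1, and neither at Timp4 in Syn2.

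On chromosome 9, 10 metalloproteinase genes lie side by side (Mmp13, Mmp12, Mmp1b, Mmp3, Mmp1a, Mmp10, Mmp8, Mmp27, Mmp20 and Mmp7). With 50 kb to either side, chr9:7222514-7749585 in mm9, the stretch of 527 kb held 14 windows, or 2.66 per 100 kb, beside 3.57 per 100 kb over the chromosome. From the first window to the last, 28 peaks were called. Of these 10 metalloproteinase genes of chromosome 9, 2 had a promoter window, Mmp13 near one end and Mmp8 farther in. Over the protein-coding genes of chromosome 9 the share was 49.8%.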
